A study of Homo sapiens with 8 samples.

Results

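The genes described here were 38 interferon-stimulated genes, chosen by symbol among the 43317 gene names of a two-colour expression array. Interferon-stimulated genes encode the antiviral proteins that cells make after interferons bind their receptors, and foreign RNA in the cytoplasm can start that response through the sensors RIG-I and MDA5. The receptors act through JAK kinases and the factor ISGF3, which holds STAT2 and IRF9 and binds the interferon-stimulated response element, a repeated GAAA unit, near the start of its target genes. Cultured tumour lines keep a basal level of these transcripts, and synthetic RNA delivered with lipid is known to raise them in some cells.

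RNA of 8 treated cultures was compared with RNA of mock cells of the same line, with 1 array for each treatment. PC3, an androgen-independent prostate cancer line, received bisamide, a small-molecule inhibitor of pirin, for 24 h or 48 h, or the microRNA miR-125b-1-3p. C4-2, a prostate cancer line derived from LNCaP, received miR-199-3p. The renal cancer line 786-O received either strand of miR-532 (miR-532-5p or miR-532-3p), and the bladder cancer line T24 either strand of miR-140 (miR-140-5p or miR-140-3p). Mock RNA carried Cy3 and treated RNA carried Cy5 on every array, with no dye swap, so that a dye effect of a gene and an effect of the treatment cannot be told apart within 1 array. The mock cells were labelled as not transfected, and no array was labelled with a control RNA, so that the effect of a given miRNA and that of any RNA with its lipid carrier cannot be told apart. The labels list bisamide under transfection, and bisamide was given in PC3 alone. The time from miRNA transfection to harvest was not given in the sources used here. The authors' names of both 786-O arrays carried the same mock number, as did those of both T24 arrays, and whether 1 mock RNA was hybridised to both arrays of a pair was not given in the sources used here, so that the ratios of a pair may share their mock RNA.

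The 6 transfected miRNAs are printed because they are the RNA whose entry is at issue. The sequences are from RefSeq (GRCh38.p14), 5′ to 3′, with the seed, bases 2 to 8, in capitals. The label miR-199-3p does not name a precursor, and hsa-miR-199a-3p and hsa-miR-199b-3p have the same mature sequence.
miR-199-3p: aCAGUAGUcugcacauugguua
miR-125b-1-3p: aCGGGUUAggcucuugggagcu
miR-532-5p: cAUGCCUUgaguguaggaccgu
miR-532-3p: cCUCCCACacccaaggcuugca
miR-140-5p: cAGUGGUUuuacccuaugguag
miR-140-3p: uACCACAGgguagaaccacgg
The 6 seeds were all different, so that no pair of arrays shared a seed.

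The repeated GAAA unit was looked for in RefSeq promoter windows of 300 bases, 250 before and 50 after the start site, as GAAA, any 2 bases, GAAA, on either strand (TTTC, any 2 bases, TTTC on the other), with overlapping matches counted. Of the 31 members whose symbol had a window, 22 (71.0%) held at least 1 match, against 1195 of all 27305 genes (4.38%). The matches below, with 5 flanking bases, are a selection from 4 members whose transcripts are described in detail, both of ISG15 and of IFIT1 and 1 each of several in MX1 and IFI6, written along the gene's own strand with both units in capitals.
ISG15, chr1:1013379-1013398, plus strand: ctcggGAAAggGAAAccgaa
ISG15, chr1:1013385-1013404, plus strand: aaaggGAAAccGAAActgaa
IFIT1, chr10:89392502-89392521, plus strand: tttagTTTCacTTTCccctt
IFIT1, chr10:89392515-89392534, plus strand: tccccTTTCggTTTCcctag
MX1, chr21:41420564-41420583, plus strand: gaaatGAAAccGAAActgaa
IFI6, chr1:27672293-27672312, minus strand: gagggGAAAatGAAActgca
Counted from the start site to the first base of a match, the matches were at -113 and -107 in ISG15 and at -116 and -103 in IFIT1. OAS1, DDX58, STAT2, IRF1, IRF9, HERC6, IFI35, XAF1 and SAMD9L had a window with no match, and 7 members had none under their symbol. A match is a description of these letters and was not tested for binding.

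Each array held 60901 gene spots, of which 126 to 181 were outliers and 0 were saturated, and the median raw Cy3 intensity was 22.7 to 24.9 and that of Cy5 18.7 to 23.1, so that many genes lay near background. Of 300 probes spotted 10 times, the median SD of the log2 ratio was 0.0389 to 0.0527 on each array. A ratio is called measured where both channels were well above background, as the scanner software flags it, and 22 (C4-2) to 35 (miR-125b-1-3p) of the 38 members were measured on an array. In all, 37 members were measured on at least 1 array and 21 on all 8 arrays. HERC6, a ligase related to HERC5, was not measured on any array. KLK3, the prostate-specific antigen, had a raw Cy3 intensity of 13592 in C4-2 and was not well above background in the other lines. The mock RNA of T24 was well above background for UPK1A alone among 7 urothelial markers, and was so for PAX8, PAX2 and LHX1 of 5 renal markers. These 3 were also well above background in 786-O, and PAX8 and LHX1 in PC3, while CDH6 was so in 786-O alone and CA9 in no line. Among leukocyte markers, HLA-DRA was not well above background in any mock, at a raw Cy3 intensity of 19.7 to 22.1, while PTPRC was so in all 8 mock channels, at 27.3 to 36.5, and CD14 was highest in T24, at 57.7 and 57.1.

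By their median, the members were near the mock level after bisamide and with miR-125b-1-3p, and slightly above it with miR-199-3p, at 0.11. They were below mock in the 786-O and T24 arrays, least so with miR-532-5p, at -0.09. All values below are log2 ratios of treated over mock unless a level is named, 0 standing for no difference and, for 786-O and T24, the 5p miRNA given before the 3p miRNA, and a member is called past the fold where its ratio was above 0.5 or below -0.5. There was 1 array for each treatment, so that no ratio has a replicate error or a test, and the share of all measured genes past the same fold is given as the background.

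With bisamide for 24 h, 0 of 31 measured members were past the fold, against 1.05% of all genes higher and 0.400% lower. With bisamide for 48 h, 0 of 31 were past the fold, against 0.915% of genes higher and 0.878% lower. The median of the members was 0.05 after 24 h and 0.01 after 48 h, beside 0.01 over all genes at both times. With miR-199-3p in C4-2, 2 of 22 members were higher and 0 lower, against 1.76% of genes higher and 2.73% lower, and the median was 0.11, beside 0.01 for all genes. With miR-125b-1-3p in PC3, 3 of 35 members were higher and 0 lower, against 1.77% and 0.883% of genes, with a median of 0.01 beside 0.02. These 4 arrays of the prostate lines had no member lower past the fold. Below 0 were 13 of 31 members at each time of bisamide, against 45.8% and 45.7% of all genes. With miR-199-3p 6 of 22 were below 0, against 47.3% of genes, and with miR-125b-1-3p 16 of 35, against 45.6%.

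With miR-532-5p in 786-O, 1 of 34 members was higher and 3 lower, against 3.60% of genes higher and 3.67% lower, and the median of the members was -0.09. With miR-532-3p in 786-O, 0 of 34 were higher and 7 (20.6%) lower, against 1.71% and 3.84% of genes, with a median of -0.19. In T24 with miR-140-5p, 0 of 28 were higher and 8 (28.6%) lower, against 1.74% and 2.89% of genes, with a median of -0.31. In T24 with miR-140-3p, 0 of 29 were higher and 4 (13.8%) lower, against 0.998% and 1.09% of genes, with a median of -0.23. The median over all genes was between 0.00 and 0.02 on these 4 arrays. Below 0 were 26 of 34, 32 of 34, 26 of 28 and 28 of 29 members, in the same order, against 50% of all genes with miR-532-3p and 45.4% to 49.9% on the other 3 arrays. The median of the members stayed below that of all genes on these 4 arrays under each of the 9 other settings, some of which changed only the filter on genes.

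**Figure D1:**
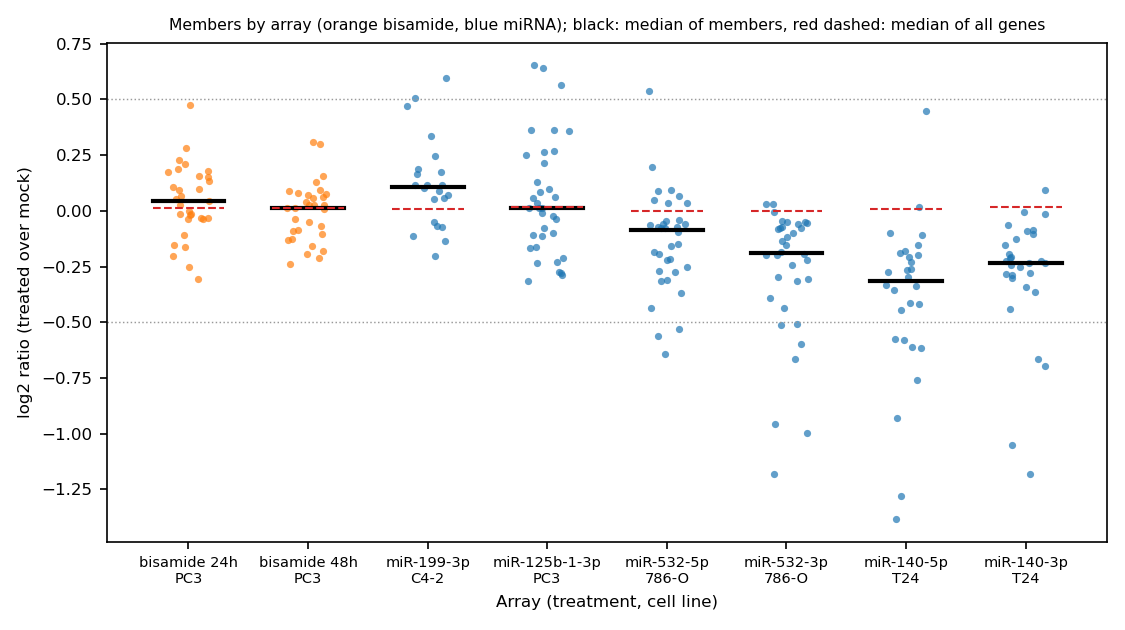
Log2 ratio of treated over mock (vertical axis) of every measured member on each of the 8 arrays (horizontal axis), 1 point for each gene, orange for bisamide and blue for miRNA. Black bars are the medians of the members and red dashed bars those of all measured genes, dotted lines mark 0.5 and -0.5, and the points of the 786-O and T24 arrays lie mostly below 0, with medians from -0.09 to -0.31.

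The ratio depended on the processing most for dim genes, since an offset of 50 was added to both channels and draws the ratios of dim spots towards 0. With the scanner software's own log ratio, which has no such offset, 10 of 34, 16 of 34, 17 of 28 and 12 of 29 members were lower past the fold on the 786-O and T24 arrays, while the background also grew, in the same order, to 14.9%, 13.4%, 10.6% and 7.22% of all genes.

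The IFIT proteins bind RNA that lacks the host cap, and IFIT1 is the founding member. Its ratio was -0.25 and -0.13 with bisamide for 24 h and 48 h, 0.06 in C4-2, -0.29 with miR-125b-1-3p, -0.64 and -0.60 in 786-O, and -1.38 and -1.18 in T24. IFIT1 was thus lower past the fold on the 4 arrays of 786-O and T24 and on no array of a prostate line. The probe lies on chromosome 10, 91163438 to 91163497 (GRCh37), and with the scanner's log ratio IFIT1 was at -2.56 and -1.95 on the T24 arrays. As log2 intensities, IFIT1 was at 7.54 in mock and 6.16 after miR-140-5p, and at 7.57 in mock and 6.39 after miR-140-3p. In 786-O the IFIT1 intensity was 9.04 in mock and 8.40 after miR-532-5p, and 9.16 and 8.56 on the miR-532-3p array, so that the mock level was higher than in T24 on both arrays. IFIT2, which binds RNA together with IFIT1 and IFIT3, was at 0.18 and 0.31 with bisamide, -0.07 in C4-2, -0.31 with miR-125b-1-3p, 0.10 and -0.39 in 786-O, and -0.62 and -0.22 in T24. IFIT2 was past the fold with miR-140-5p, where the scanner's log ratio was -2.43, and that ratio was also past the fold with miR-140-3p, miR-532-3p and miR-199-3p, at -0.78, -0.70 and -0.59. IFIT3 was at 0.11 and 0.30 with bisamide, -0.28 with miR-125b-1-3p, -0.37 and -0.51 in 786-O and -0.26 and -0.29 in T24, and was not measured in C4-2, and its scanner log ratio was -1.40 on both T24 arrays. IFIT5 was between -0.10 and 0.06 on the 7 arrays that measured it.

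ISG15 is a ubiquitin-like protein that is joined to other proteins in the interferon response. Its ratio was -0.20 and -0.05 with bisamide, -0.11 in C4-2, -0.08 with miR-125b-1-3p, -0.53 and -1.18 in 786-O, and -1.28 and -1.05 in T24. The 4 arrays of 786-O and T24 were all lower than the 4 arrays of the prostate lines. ISG15 was a bright gene, with log2 levels of 10.27 to 11.88 in the mock channel, and its scanner log ratio of -0.54, -1.23, -1.33 and -1.09 on the same 4 arrays was close to the values above. As log2 intensities in mock and treated cells, ISG15 was at 10.63 and 9.35, then 10.56 and 9.51, on the T24 arrays, and at 11.23 and 10.70, then 11.26 and 10.08, on the 786-O arrays. The ISG15 ratio nearest to 0 under any other setting was -0.87, -0.89 and -0.70 on the arrays of miR-532-3p, miR-140-5p and its 3p strand, with median centring in place of loess, and -0.33 with miR-532-5p, with the median of the other arrays subtracted. Its probe lies on chromosome 1, 949567 to 949626 (GRCh37). USP18, which removes ISG15 from its targets, was between -0.42 and 0.12, and HERC5, the ligase that attaches ISG15, between -0.23 and 0.06, while the scanner's log ratio of USP18 was -1.05 and -1.71 in 786-O and that of HERC5 -0.81 in C4-2.

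MX1 is a GTPase that traps viral nucleoproteins. Its ratio was 0.21 and 0.04 with bisamide, 0.64 with miR-125b-1-3p, -0.08 and -0.08 in 786-O, and -0.76 and -0.70 in T24, and it was not measured in C4-2. The MX1 intensity was 7.74 in mock and 8.38 treated on the miR-125b-1-3p array, and 7.05 and 6.29, then 7.04 and 6.35, on the T24 arrays, where the scanner's log ratio was -1.58 and -1.35, beside -0.62 with miR-532-3p. MX1 was therefore higher past the fold on a PC3 array and lower on both T24 arrays. MX2, its relative that acts on lentiviruses, was measured with its brightest probe on 4 arrays, between -0.07 and 0.25.

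The OAS enzymes sense foreign RNA and activate RNase L. OAS1 was measured on the miR-125b-1-3p array alone, at -0.12, and OAS2 on the 3 PC3 arrays, at 0.01 to 0.07. OAS3 was at -0.16 and -0.13 with bisamide, 0.06 with miR-125b-1-3p, -0.32 and -0.07 in 786-O, and -0.61 and -0.24 in T24, with scanner log ratios of -1.29 for miR-532-5p and -1.06 for miR-140-5p. OASL, a relative that enhances sensing by RIG-I, was at -0.04 and 0.02 with bisamide, -0.07 in C4-2, -0.11 with miR-125b-1-3p, -0.08 and -0.96 in 786-O, and -0.19 and -0.21 in T24. OASL was past the fold with miR-532-3p, where its intensity was 8.20 in mock and 7.24 treated, and was near 0 on the miR-532-5p array, which carried the same mock number. The scanner's log ratio of OASL was -1.59 with miR-532-3p and also past the fold in T24, at -1.26 and -0.99.

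DDX58 encodes RIG-I, IFIH1 encodes MDA5, and DDX60 is a helicase that takes part in RNA sensing. DDX58 was at 0.18 and 0.09 with bisamide, 0.13 with miR-125b-1-3p, 0.05 and -0.05 in 786-O, and -0.33 and -0.24 in T24. IFIH1 was at 0.16 and 0.03 with bisamide, 0.19 in C4-2, 0.26 with miR-125b-1-3p, 0.09 and -0.24 in 786-O, and -0.58 and -0.34 in T24. DDX60 was at -0.02 and -0.18 with bisamide, -0.17 with miR-125b-1-3p, -0.19 and -0.67 in 786-O, and -0.44 and -0.21 in T24. The other DDX58 probe was at -0.04 and 0.01 in T24, so that the value of DDX58 there depended on the probe. IFIH1 and DDX60 were below 0 on both T24 arrays, and IFIH1 was past the fold there with miR-140-5p. DDX60 was past the fold with miR-532-3p, and its scanner log ratio was -1.31 there and -2.11 and -0.83 in T24.

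The 4 transcription factors were not past the fold on any array, though the scanner's log ratio was for IRF1 with miR-532-5p, IRF7 with miR-532-3p and IRF9 in C4-2, at -0.63, -0.60 and 0.55. STAT2, a subunit of ISGF3, was at 0.07 and -0.16 with bisamide, 0.12 in C4-2, -0.10 with miR-125b-1-3p, -0.27 and -0.05 in 786-O, and -0.18 and -0.36 in T24. IRF9, the subunit that binds DNA, was at 0.28 and 0.07 with bisamide, 0.07 in C4-2, 0.27 with miR-125b-1-3p, 0.06 and -0.05 in 786-O, and -0.20 and -0.28 in T24. IRF1, induced by interferon gamma, was between -0.22 and 0.01, and IRF7, which induces interferon genes, between -0.44 and 0.17.

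The IFITM proteins block the fusion of viruses with cell membranes, and their genes are close copies, and cross-hybridisation between them was not tested. IFITM1 was at 0.19 and -0.10 with bisamide, 0.10 in C4-2, 0.56 with miR-125b-1-3p, -0.06 and -0.08 in 786-O, and -0.11 and -0.01 in T24. IFITM3 was at 0.09 at both times of bisamide, 0.47 in C4-2, 0.10 with miR-125b-1-3p, -0.22 and -0.19 in 786-O, and -0.41 and -0.01 in T24. IFITM1 was past the fold with miR-125b-1-3p, and IFITM2 was between -0.34 and 0.34. BST2, or tetherin, holds budding virus at the cell surface. It was measured on 3 arrays, at 0.24 in C4-2 and at 0.54 and -0.51 in 786-O, so that the 786-O arrays stood on opposite sides of their mock. The BST2 intensity was 11.40 in mock and 11.94 after miR-532-5p, and 11.32 in mock and 10.81 after miR-532-3p, and with median centring the latter ratio was -0.16.

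IFI6, a mitochondrial protein that counters cell death, was at -0.04 at both times of bisamide, 0.60 in C4-2, 0.65 with miR-125b-1-3p, -0.05 and -0.12 in 786-O, and -0.93 and -0.66 in T24. With the scanner's log ratio IFI6 was at 0.91 with miR-125b-1-3p and at -1.51 and -1.03 in T24. IFI6 was higher past the fold on both arrays of a prostate line that received a miRNA and lower on both T24 arrays. IFI44 was at -0.30 and -0.24 with bisamide, -0.23 with miR-125b-1-3p, -0.31 and -0.996 in 786-O, and -0.28 and -0.23 in T24. The scanner's log ratio of IFI44 was -1.34 with miR-532-3p and -1.47 and -1.02 in T24, so that the array with its lowest value depended on the offset. IFI35 was at 0.15 and 0.01 with bisamide, 0.06 in C4-2, -0.16 with miR-125b-1-3p, -0.44 and -0.16 in 786-O, and -0.57 and -0.23 in T24. The scanner's log ratio of IFI35 was -1.64 with miR-532-5p. IFI27 was between -0.20 and 0.36, and IFI44L, measured on 4 arrays, between -0.20 and 0.01.

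TAP1 carries peptides into the endoplasmic reticulum for presentation on class I molecules. It was at 0.00 and 0.01 with bisamide, 0.51 in C4-2, 0.36 with miR-125b-1-3p, -0.56 and -0.30 in 786-O, and -0.27 and -0.28 in T24. TAP1 was at or above 0 on the arrays of the prostate lines and below 0 on those of 786-O and T24. ISG20, an exonuclease, was between -0.44 and 0.47, RSAD2, or viperin, between -0.31 and 0.04 on 3 arrays, and SAMD9L between -0.19 and 0.36 on 5 arrays. XAF1 and SAMD9, each measured on 2 arrays, were between -0.04 and 0.03, and PARP9 and its partner DTX3L, which form a ligase complex, were between -0.30 and 0.21.

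**Figure D2:**
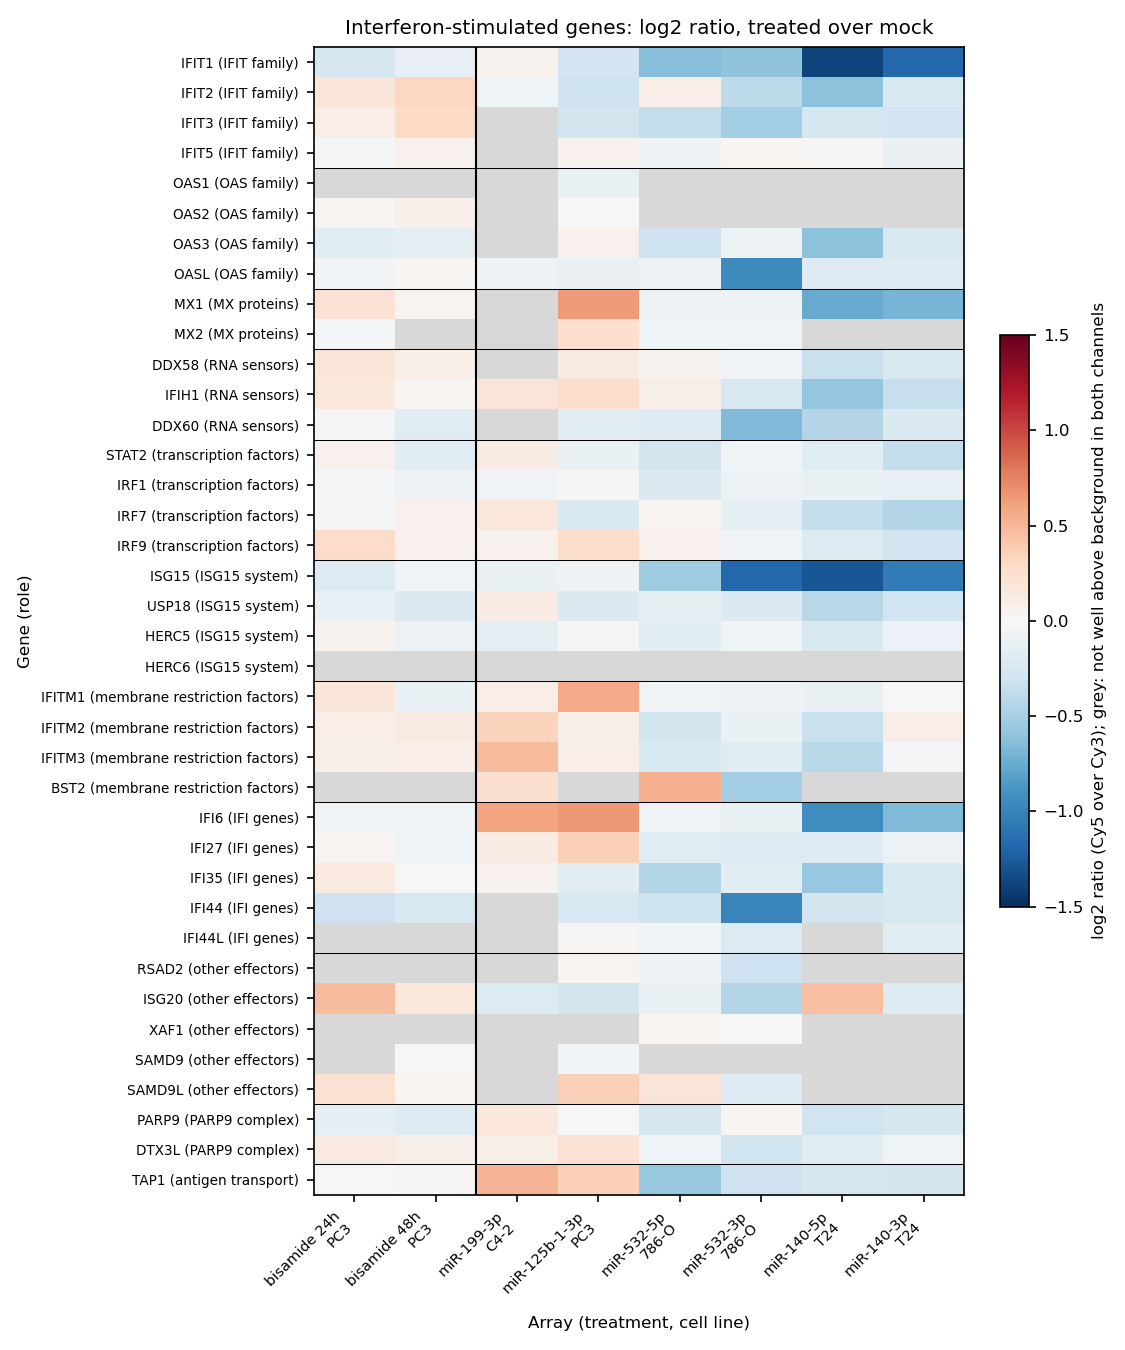
Log2 ratio of treated over mock for the 38 members (rows, ordered by role) on the 8 arrays (columns, bisamide to the left of the black line), red above and blue below mock, with grey where a gene was not measured. IFIT1 and ISG15 have the darkest blue cells on the T24 arrays, at -1.38 and -1.28 with miR-140-5p, and IFI6 is red at 0.60 and 0.65 on the miR-199-3p and miR-125b-1-3p arrays.

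Few members lay in only 1 channel. Among all pairs of a member and an array, 15 were well above background in 1 channel, 14 of them in the treated channel. Over all genes, 2262 to 4073 on an array were so in Cy5 alone and 56 to 457 in Cy3 alone. On every array the excess in Cy5 was thus seen over all genes too. The largest difference that could be bounded was at least 1.17-fold. For 10 members with a further measured probe, the probes differed by a median of 0.13 over 42 pairs and by at most 0.44. Only BST2 in 786-O and IFITM1 with miR-125b-1-3p had a value past the fold and a further measured probe. Their other probes had the same sign. With miR-140-5p the other probes of IFIT2 and OAS3 were not measured, with ratios of -0.07 and -0.13. The remaining values past the fold rest on 1 probe.

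Set side by side, the median of the 6 miRNA arrays lay below the mean of the 2 bisamide arrays for most members, though few members lay below both bisamide values on every miRNA array. For the 21 members measured on all 8 arrays, the median over the miRNA arrays minus the mean of the bisamide arrays had a median of -0.17, against 0.00 for 12579 genes, and was below 0 for 20 of 21 members, against 50.6% of genes. The 8 treatments are not replicates of 2 groups, and no test was made. Members with all 6 miRNA values below both bisamide values numbered 2, against 7.51% of genes, and were IFIT2 and OASL, while 0 of 21 had all 6 above, against 5.52%. ISG15 differed most among the 21, at -0.66, and PARP9 was the member above 0, at 0.04 with its brightest probe. The other PARP9 probe was at 0.01 and 0.25 with bisamide, 0.07 in C4-2 and 0.14 with miR-125b-1-3p. It was at -0.08 and -0.21 in 786-O and at -0.42 and -0.33 in T24, so that the sign for PARP9 depended on the probe. Without the T24 arrays the median of the members was -0.08, beside -0.01 for all genes, with 17 of 21 below 0, against 52.5% of genes. Without the 786-O arrays it was -0.10, beside 0.00, with 16 of 21 below 0, against 49.4%. Within PC3, where miR-125b-1-3p and bisamide can be set against each other in 1 line, the median over 30 members was 0.02, beside 0.00 for all genes. Below 0 were 14 of 30, against 49.3% of genes. The miR-125b-1-3p ratios are against their own mock, in which 28 of 30 members were above the mean of the bisamide mocks. The line and the treatment cannot be told apart in the comparison over all arrays.

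The level of the members in mock cells differed between the lines. For this, the log2 Cy3 levels were compared with limma, with 3 PC3 mocks, the C4-2 mock, and the mean of each pair of 786-O and T24 mocks as 6 samples and Benjamini-Hochberg adjustment over 20448 genes. The spread came from the PC3 mocks alone, and the lone value of each other line was assumed to vary like them. No source says that the mocks were separate cultures, so that the p-values measure the spread between these samples, which may be technical. In a bulk culture, fewer cells that express a gene and less RNA in each cell cannot be told apart. The SD of the difference between mocks over measured genes was 0.0990 in 786-O, 0.0694 in T24, and 0.160 to 0.249 in PC3.

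In 786-O, 15 of 35 members tested were higher than in PC3 at an adjusted p under 0.05 and 3 lower, against 21.2% and 17.7% of all genes. BST2 was at log2 levels of 11.40 and 11.32 in the 786-O mocks and was not well above background in the 3 PC3 mocks, at 5.77, 5.85 and 5.88, which made it at least 45.5-fold higher (limma adjusted p = 0.000345). IFI27 was at a mean level of 9.18 in 786-O and 6.36 ± 0.11 (SD, n = 3) in PC3, a log2 difference of 2.82 (SE 0.11, limma adjusted p = 0.0011). IRF7 was lower, at a mean level of 6.34 against 9.23 ± 0.03 in PC3, by -2.89 (SE 0.06, limma adjusted p = 0.000454). IFI44 was at 9.02 against 6.83 ± 0.56, a difference of 2.18 (SE 0.46, limma adjusted p = 0.0301), a call lost when either bisamide mock was left out, with scaling to the 75th percentile and when all genes were tested. ISG20 was at 9.09 against 11.15 ± 0.15, by -2.05 (SE 0.13, limma adjusted p = 0.00247). OASL, IFIT3, DDX60, IFI6, SAMD9L, IRF1, HERC5, TAP1, RSAD2, IFIT5, XAF1 and DDX58 were also higher, by 1.90 down to 0.43, with XAF1 not well above background in PC3, and IFITM2 was lower, by -0.66.

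In T24, 10 of 35 members were higher than in PC3 and 3 lower, against 18.9% and 14.7% of genes. ISG20 was at a mean level of 9.11 in T24 against 11.15 in PC3, by -2.04 (SE 0.13, limma adjusted p = 0.00332). IFIT2 was at 6.41 against 7.85 ± 0.42, by -1.44 (SE 0.35, limma adjusted p = 0.0453), a call lost without either bisamide mock, with quantile scaling, with the mean over probes and when all genes were tested. The sensor IFIH1 was higher, at 7.56 against 6.14 ± 0.29, by 1.41 (SE 0.25, limma adjusted p = 0.0211), and this call too was lost without either bisamide mock. IRF9 was at 7.85 against 6.63 ± 0.07, higher by 1.22 (SE 0.08, limma adjusted p = 0.00341), and IFI35 at 7.81 against 6.65 ± 0.06, higher by 1.16 (SE 0.08, limma adjusted p = 0.00333). DDX58, HERC5, IFITM3, IFI6, USP18, IFITM2 and IRF1 were higher by 1.03 down to 0.37, and IFIT3 was lower, by -0.44.

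In C4-2, 3 of 35 members were higher than in PC3 and 14 lower, against 28.2% and 23.6% of genes. IFIT2 was at a level of 6.07 in C4-2 against 7.85 ± 0.42 in PC3, by -1.78 (SE 0.35, limma adjusted p = 0.0184). IFIT5 was not well above background in C4-2 and was at least 2.49-fold lower than in PC3 (limma adjusted p = 0.00125). BST2 was at 7.38 in C4-2 and was at least 2.88-fold higher than in PC3 (limma adjusted p = 0.000861). ISG20 was at 9.85 against 11.15 ± 0.15, by -1.30 (SE 0.13, limma adjusted p = 0.00379), and IFITM2 at 9.80 against 10.89 ± 0.10, by -1.09 (SE 0.10, limma adjusted p = 0.00277). IFI6 and USP18 were also higher, by 0.80 and 0.50. IFITM3, IRF7, PARP9, IFI35, DTX3L and IRF9 were lower by -0.95 to -0.46, and IFIT3, OAS3 and DDX60 were lower and not well above background in C4-2. DDX58 was lower by -0.46 with its brightest probe, which was not well above background in C4-2, while its other probe was, at a level of 6.18 in C4-2 and 6.47, 6.58 and 6.49 in PC3. The DDX58 probes disagreed in the other lines, where the other probe was at 6.39 and 6.47 in 786-O and at 6.11 and 6.05 in T24, and the higher calls of DDX58 rest on the brightest probe.

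**Figure D3:**
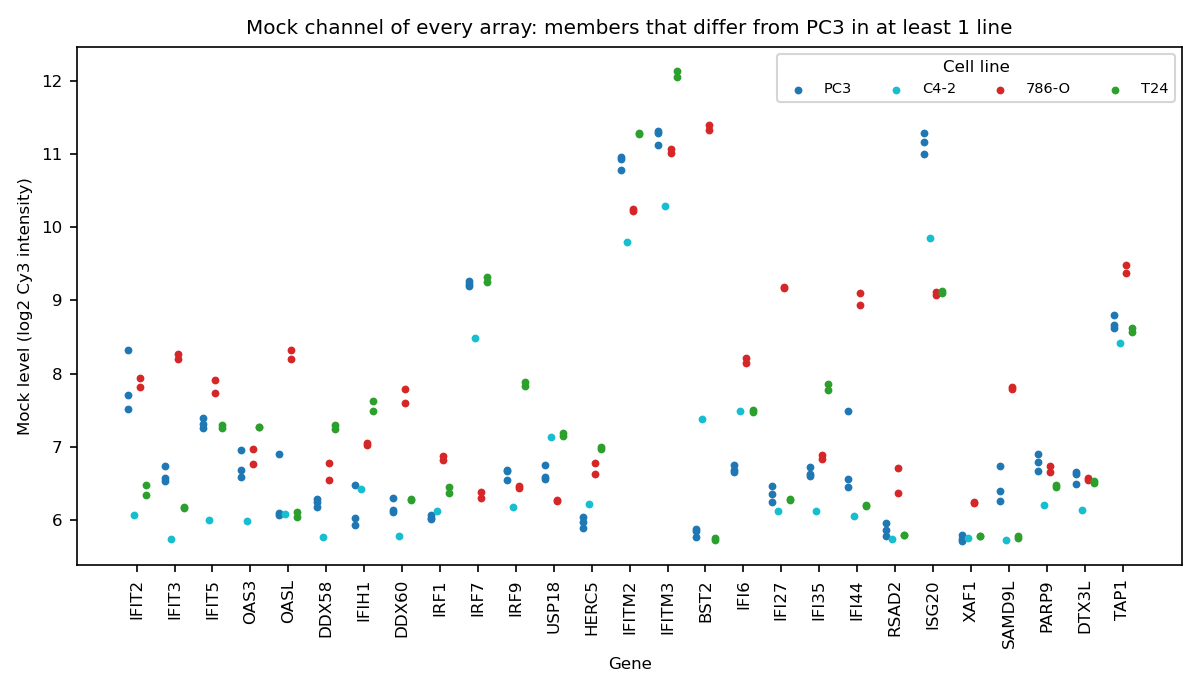
Log2 Cy3 level (vertical axis) in the mock channel of all 8 arrays for the members that differed from PC3 in at least 1 line (horizontal axis), 1 point for each array, coloured by cell line. BST2 lies at 11.40 and 11.32 in 786-O and below 6 in PC3 and T24, and IRF7 at a mean of 6.34 in 786-O and 9.23 in PC3.

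The PC3 mocks differed among themselves in these genes, a comparison chosen after the values were seen. The mock of the miR-125b-1-3p array was above the mean of the bisamide mocks by more than 0.5 for 6 of 30 members well above background in all PC3 mocks, against 2.37% of genes, and by less than -0.5 for 0, against 1.64%. The mock level of IFIT1 was 8.35 on the miR-125b-1-3p array and 7.36 and 7.32 on the bisamide arrays. The level of MX1 was 7.74 against 6.84 and 6.85, that of ISG15 was 11.88 against 11.02 and 11.14, and that of IFI44 was 7.48 against 6.56 and 6.46. OASL was at 6.90 against 6.07 and 6.09, and IFIT2 at 8.32 against 7.52 and 7.70. Of the 30 members, 28 were higher than the mean of the bisamide mocks, with a median difference of 0.16, beside -0.02 for all genes. The largest difference between the bisamide mocks was 0.38 for any of these members.

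The treated channel of the miR-125b-1-3p array was also above the mean of the treated bisamide channels, for 30 of 34 members and with a median difference of 0.17, beside -0.01 for all genes. Past 0.5 were 13 of 34 members higher and 1 lower, against 4.08% and 3.44% of genes. The level of IFIT1 was 8.06 in the treated channel against 8.35 in its own mock, and 7.11 and 7.20 in the bisamide-treated channels. MX1 was at 8.38 in the treated channel, above its own mock at 7.74. IFI6 was at 7.41 in the treated channel and at 6.76 in its own mock, while the bisamide arrays had 6.62 and 6.64 when treated and 6.66 and 6.68 in mock. Among the 6 PC3 channels IFI6 was thus highest in the transfected cells, and IFIT1 was high in both channels of that array. When the mock of the miR-125b-1-3p array was left out of the fit between lines, the members higher and lower than PC3 numbered 19 and 6 in 786-O, against 23.7% and 22.5% of all genes, 10 and 6 in T24, against 21.6% and 19.2%, and 6 and 20 in C4-2, against 30.2% and 26.9%. Without the mock of bisamide 24 h they numbered 10 and 4, 6 and 2, and 2 and 13 in the same order of lines, against 13.6% and 10.9%, 11.2% and 9.15%, and 20.9% and 17.4% of genes. Without that of bisamide 48 h they numbered 10 and 3, 6 and 1, and 2 and 11, against 13.4% and 10%, 10.3% and 8.26%, and 21.2% and 17.0%.

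**Figure D4:**
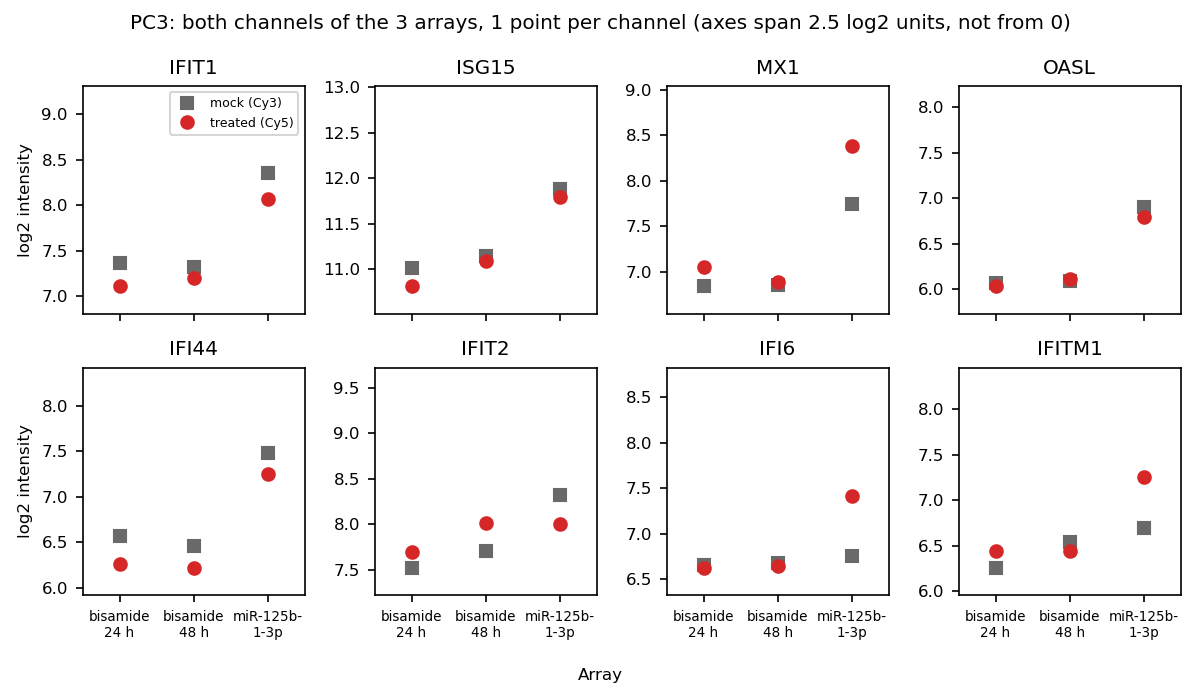
Log2 intensity (vertical axes, each spanning 2.5 units and not starting at 0) of 8 members in the mock channel (grey squares) and the treated channel (red circles) of the 3 PC3 arrays (horizontal axes). IFIT1, ISG15, MX1, OASL, IFI44 and IFIT2 are higher in the mock of the miR-125b-1-3p array than in both bisamide mocks, while IFI6 is higher in the treated channel alone, at 7.41.

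Genes around the members were counted by lists of the same pathway. Of 17 interferon genes on the array, 14 were not well above background in either channel of any array, among them IFNB1, IFNG and IFNL1. IFNA4 was well above background in 6 Cy3 and 8 Cy5 channels, IFNE in 5 and 6, and IFNL2 in 1 and 7. Over all genes too, more were so in Cy5 alone than in Cy3 alone on every array. Of 14 genes for the receptors and JAK-STAT signalling, 0 were past the fold on 6 arrays. With miR-532-3p 1 of 13 measured was higher, against 1.71% of all genes. With miR-140-5p 1 of 14 was higher and 2 lower, against 1.74% and 2.89%. Of 21 genes for RNA and DNA sensing, 1 of 13 measured was lower with miR-199-3p and 1 of 15 with miR-140-3p. The shares of all genes lower there were 2.73% and 1.09%, and 0 genes of the list were past the fold on the other 6 arrays. A further list of 61 interferon-stimulated genes had 6 of 48 measured genes lower and 2 higher with miR-532-5p, against 3.67% and 3.60% of all genes. Lower were 5 of 50 with miR-532-3p, 4 of 45 with miR-140-5p and 1 of 45 with miR-140-3p, against 3.84%, 2.89% and 1.09%. Higher on these 3 arrays were 0, against 1.71%, 1.74% and 0.998%. Bisamide for 48 h had 1 of 45 higher and 1 lower, against 0.915% and 0.878%. In C4-2 1 of 37 was higher and 1 lower, against 1.76% and 2.73%. For miR-125b-1-3p 0 of 46 were higher and 1 lower, against 1.77% and 0.883%. After bisamide for 24 h 0 of 45 were past the fold. In that list APOL6, an apolipoprotein L, was at 1.25 with bisamide for 48 h and 0.06 at 24 h, and LAP3, a leucine aminopeptidase, was at -1.18 with miR-532-5p and -0.12 with miR-532-3p.

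Among 19 NF-kB and inflammatory genes, the lower ones numbered 4 of 16 with miR-532-5p and 7 of 16 with miR-140-3p, with 0 higher on both arrays. The higher ones numbered 3 of 17 with miR-532-3p, with 0 lower, and 2 of 16 with miR-140-5p and 2 of 15 with miR-125b-1-3p, with 2 lower on each of the latter 2 arrays. With bisamide 1 of 14 was higher at 24 h and 1 of 13 lower at 48 h, and 1 of 7 was lower with miR-199-3p. All these counts stand beside the shares of all genes past the same fold given above. IL6 was at -1.21 with miR-532-5p and at -0.77 and -1.27 in T24. The chemokine CXCL1 was at -2.06 and -0.11 in 786-O and at 0.84 and -0.75 in T24. It was at -0.30 and -0.765 with bisamide for 24 h and 48 h, and at -0.51 with miR-125b-1-3p. In T24 the chemokine CCL20 was at 1.86 and -0.75. The T24 arrays thus stood on opposite sides of mock for CXCL1 and CCL20 while IFIT1, ISG15, MX1 and IFI6 were lower on both. BIRC3, an inhibitor of apoptosis, was at 1.31 with miR-125b-1-3p.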

How the data were processed

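RNA of 8 treated cultures (Cy5) and of mock cells (Cy3) was hybridised to 8 two-colour Agilent arrays on 1 slide. Spots were quantified by the authors with Agilent Feature Extraction 11.5.1.1, per the file headers, and the deposited files hold the mean spot intensity and median background intensity of each spot on a linear scale. The authors also deposited the software's log10 ratio of Cy5 over Cy3, and the series table held the same values (largest difference 0). The columns of other samples numbered 0. The labelled treatment gave the groups. From the intensities, log2 ratios were computed with limma 3.58.1 in R 4.3.3, by normexp background correction with an offset of 50 and loess within each array with control spots at weight 0. Outlier spots were left out and repeat spots averaged. A gene was represented by its brightest probe, and channel levels were scaled between arrays by Aquantile. Genes had to be well above background in both channels for a ratio, and in Cy3 on all arrays of at least 1 line for the mock level. The mock level was tested with lmFit and eBayes, Benjamini-Hochberg adjustment and a threshold of 0.05. The steps were tested on simulated data. With 1 array for each treatment, the precision of a ratio is limited by the number of arrays. All members could be named, with every array given for those past 0.5 on an array and for IFIT1, ISG15, MX1, OAS1, DDX58, STAT2, IRF9, IFITM3 and TAP1; context genes were named when past 1.0 and mock levels given in full for the 5 largest differences of a line. Other background corrections, filters, scalings, probe rules, folds of 1.0 and 1.5, and subsets of arrays were tried, the subsets and the comparison among PC3 mocks being chosen after seeing the data. The members, lists and tests were chosen with earlier results of these data known. Coordinates of probes are those of the files (GRCh37), and promoter windows those of RefSeq (GRCh38.p14). Some genes are not reported here.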

Additional observations from a re-analysis of the deposited data

Results flagged for a closer look

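The 4 members here were past 0.5 in opposite directions on different miRNA arrays. The treatments differ between these arrays, as do the lines except for BST2, and the differences were not tested. MX1 was at 0.64 with miR-125b-1-3p in PC3 and at -0.76 and -0.70 in T24 (miR-140-5p, then miR-140-3p). BST2 was at 0.54 with miR-532-5p and -0.51 with miR-532-3p, both in 786-O and with the same mock number. IFI6 was at 0.60 with miR-199-3p in C4-2 and 0.65 with miR-125b-1-3p in PC3, against -0.93 and -0.66 on the same T24 arrays. TAP1 was at 0.51 with miR-199-3p in C4-2 and -0.56 with miR-532-5p in 786-O.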

How the results depend on the processing

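The 28 ratios past 0.5 kept their sign in all 252 values under other settings, and 183 moved by less than the SD of that gene's level over the PC3 mocks. The settings that changed only the filter could not move a ratio, nor could the mean over probes for a gene with 1 probe. These unmoved values are among the 252 and the 183. The SD included the mock of the miR-125b-1-3p array and differed between genes, at 0.58 for IFIT1 and 0.05 for IFI6. Leaving out the offset widened them. The median of the members minus that of all genes (the shift) was, with plain background subtraction, an offset of 0 and the scanner's log ratio in turn, 0.26, 0.24 and 0.27 with miR-199-3p, -0.24 each for miR-532-5p, -0.38, -0.37 and -0.43 for its 3p strand, -0.68, -0.67 and -0.75 for miR-140-5p, -0.44, -0.43 and -0.44 for its 3p strand, and -0.28, -0.28 and -0.30 for miRNA against bisamide arrays. In the same order, members higher numbered 2, 2 and 2 with bisamide for 24 h, 5, 5 and 8 with miR-199-3p and 6, 5 and 6 with miR-125b-1-3p. The shares of all genes higher on these arrays were 3.07% to 3.80%, 7.10% to 8.84% and 4.65% to 5.56%. Members lower numbered 1, 1 and 1 with bisamide for 24 h, 2, 2 and 3 for 48 h, 1, 1 and 2 with miR-199-3p and 1, 1 and 2 with miR-125b-1-3p. The shares of genes lower there were 3.22% to 5.00%, 3.65% to 5.49%, 8.67% to 10.8% and 4.26% to 6.46%. Lower were also 10 each for miR-532-5p, 15, 15 and 16 for its 3p strand, 17 each for miR-140-5p and 13, 13 and 12 for its 3p strand. The shares of genes there were 12.4% to 14.9%, 11.1% to 13.4%, 8.79% to 10.6% and 5.76% to 7.22%. With bisamide for 48 h, 1 member was higher by subtraction and by the scanner's ratio, against 3.46% and 3.72% of genes. Members with all miRNA values below bisamide numbered 1, 1 and 0, and 5 over all genes. With no background correction, the shift was -0.44 and -0.37 in T24 (5p, then 3p). Lower were 5 and 12 members in 786-O and 13 with miR-140-5p, against 6.77%, 6.67% and 4.86% of genes. With median centring, 2, 3, 4, 1 and 2 members were higher with bisamide for 24 h and 48 h, in C4-2 and in T24 (5p, then 3p). The shares of genes higher there were 6.38%, 6.91%, 8.14%, 11.2% and 9.07%. That setting had 4 and 8 members lower with miR-532-3p and miR-140-3p, against 2.29% and 2.95% of genes, and 1 had all miRNA values above bisamide. With the median of the other arrays subtracted, the shift was 0.15 with bisamide for 24 h, 0.24 with miR-199-3p and -0.14 with miR-140-3p. Higher were 1, 2 and 1 members with bisamide for 24 h, 48 h and miR-140-5p, against 0.951%, 0.925% and 1.72% of genes. Lower were 1 and 4 with miR-532-5p and miR-532-3p, against 2.87% and 3.65%. Over all genes, the shift with miR-140-5p was -0.22. With the mean over probes, 0 members were higher with miR-532-5p, against 2.86% of genes. Past 1.0, 1 member was lower with miR-532-3p and 2 on each T24 array, with 0 past 1.0 elsewhere and 0 past 1.5 on any array. No share of all genes is given for these folds. Chosen after seeing the data, PC3 arrays alone gave a shift of 0.02 between miRNA and bisamide, with 13 of 30 members above and 10 below both bisamide arrays, against 40.6% and 39.2% of genes.

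For the mock level, members higher in C4-2 numbered 5 with no background correction and with the mocks of 1 line as separate samples. The shares of all genes higher there were 30.0% and 33.4%. Members lower in 786-O numbered 5 with no background correction, 6 with an offset of 0, 5 with scaling to the 75th percentile and 9 with separate mocks. The shares of genes lower there were 22.3%, 23.0%, 33.4% and 31.0%. Those higher in 786-O numbered 8 of 21 among genes well above background on all 8 arrays, against 23.4%. Members lower in T24 numbered 5 with subtraction, no correction and an offset of 0, 8 with separate mocks and 1 over all genes. Leaving out each PC3 mock in turn gave 10 to 19 higher and 3 to 6 lower in 786-O, 6 to 10 and 1 to 6 in T24, and 2 to 6 and 11 to 20 in C4-2. Of 176 recomputed differences for the members named in full, 11 lost their call and 0 changed sign. The excess of the PC3 mock of the miR-125b-1-3p array, looked for after seeing the data, was 11, 9 and 12 members with subtraction, no correction and an offset of 0, with shifts of 0.38, 0.29 and 0.38. No share of all genes is given for that excess under those settings. The causes were not tested beyond what each setting changes. No paired analysis was possible because each treatment had 1 array. Low signal over background limits IFIT3, IFIT5, OAS3 and MX1 in C4-2 and OAS1 on 7 arrays.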
